A study of Rattus norvegicus with 12 samples.

Results

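The lysosomal genes described here are those whose symbol names a cathepsin (Cts and 1 letter), a subunit of the vacuolar proton pump (Atp6v or Atp6ap) or a lysosome-associated membrane protein (Lamp and a number), or Hexa. The array had named probes for 44 such genes among 12206 named genes. Of these, 34 had a signal well above background in all 3 pups of at least 1 group and were tested: 11 cathepsins, 11 subunits of the pump's V1 part, 7 of its V0 part, the accessory subunit Atp6ap1, Lamp1, Lamp2, Lamp5 and Hexa. The rule used names and detection only. Of the 34, 33 were well above background on all 12 arrays, the exception being Atp6v1e2. The 10 genes that did not pass were Atp6v0d2, Atp6v1b1, Atp6v1g3, Ctsg, Ctsj, Ctsm, Ctsq, Ctsr, Ctsw and Lamp3.

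Lysosomes are membrane-bound compartments in which proteins, lipids and sugars taken up by the cell or delivered by autophagy are broken down. Cathepsins are their proteases and work best at acid pH. That acidity comes from the vacuolar proton pump, in which the cytoplasmic V1 part hydrolyses ATP and turns a rotor that drives protons through the V0 part in the membrane. In brain, microglia and macrophages are rich in lysosomal proteases, while neurons also use the same pump to load synaptic vesicles with transmitter.

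The samples were cerebral cortex from Wistar rat pups, labelled as 2 weeks old, with 3 pups in each of 4 groups. Injured pups underwent the Rice procedure for neonatal hypoxia-ischemia at 7 days of age: the left carotid artery was tied and cut, and after 1 to 2 h the pups breathed 8% oxygen for 1 h at 33 °C. They were then given 100 µl saline (injured saline) or 9 mg/kg MCI-186, the free radical scavenger edaravone, in saline (injured MCI-186), into the peritoneum and again 30 min later. Pups without the insult received an injection of saline (control saline) or of MCI-186 (control MCI-186), and in all groups the cortex of the side that was ligated in injured pups was used. All values below are log2 of the processed signal over the 75th percentile of its own array, so a difference of 1 is a doubling, and levels are compared between pups for 1 probe, never between probes. The 3 arrays of a group shared a slide with no other group, so the effects of slide and of group cannot be told apart, although injury was compared on separate slides in saline and in MCI-186 pups.

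Between 65.1% and 73.7% of the probes on an array were well above background, and arrays of a group correlated at 0.982 to 0.995. All 10 neuronal markers on the array were detected. Summed neuronal marker signal, in units of the 75th percentile, was 233 to 260 in controls, 106 to 164 in injured saline and 114 to 181 in injured MCI-186 pups.

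In saline pups, injury went with higher cathepsin signal and lower proton pump signal. By limma, with Benjamini-Hochberg adjustment over all features and a threshold of 0.05, 10 of 11 cathepsins were higher and none lower, beside 24.9% of all named genes that were higher and 30.4% that were lower (55.3% in either direction, and 49.5% of all features). Of the 19 pump genes, 14 were lower, 1 was higher and 4 did not pass. The median log2 difference was 0.94 for the cathepsins and -0.58 for the pump genes, where the median of all named genes was -0.09. The medians of the cathepsins and the pump genes thus lay 1.52 apart, against a within-group SD of 0.305 for that gap over pups, pooled over all 4 groups. Injured pups varied more than controls. In saline pups the median cathepsin shift from the control means was -0.05 to 0.09 in controls and 0.71 to 1.14 in injured pups. For the pump genes it was -0.02 to 0.04 and -0.70 to -0.41. Lamp1, Lamp2 and Hexa were higher, and Lamp5 was lower.

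The same split was measured in MCI-186 pups, on a separate pair of slides with separate controls. There, too, 10 of 11 cathepsins were higher and 14 of 19 pump genes were lower, with 1 pump gene higher, beside 25.6% of named genes higher and 31.4% lower (57% in either direction, and 52% of all features). The medians were 1.08 and -0.58, a gap of 1.66, and the median of all named genes was -0.08. The calls of all 34 genes were the same in both treatments: 14 higher, 15 lower and 5 not passing. In saline pups the 3 injured and 3 control pups did not overlap for 29 genes, 14 wholly higher and 15 wholly lower, where 28.2% and 36.1% of all named genes were so placed. In MCI-186 pups 14 genes were wholly higher and 16 wholly lower, beside 29.9% and 40% of named genes.

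**Figure D1:**
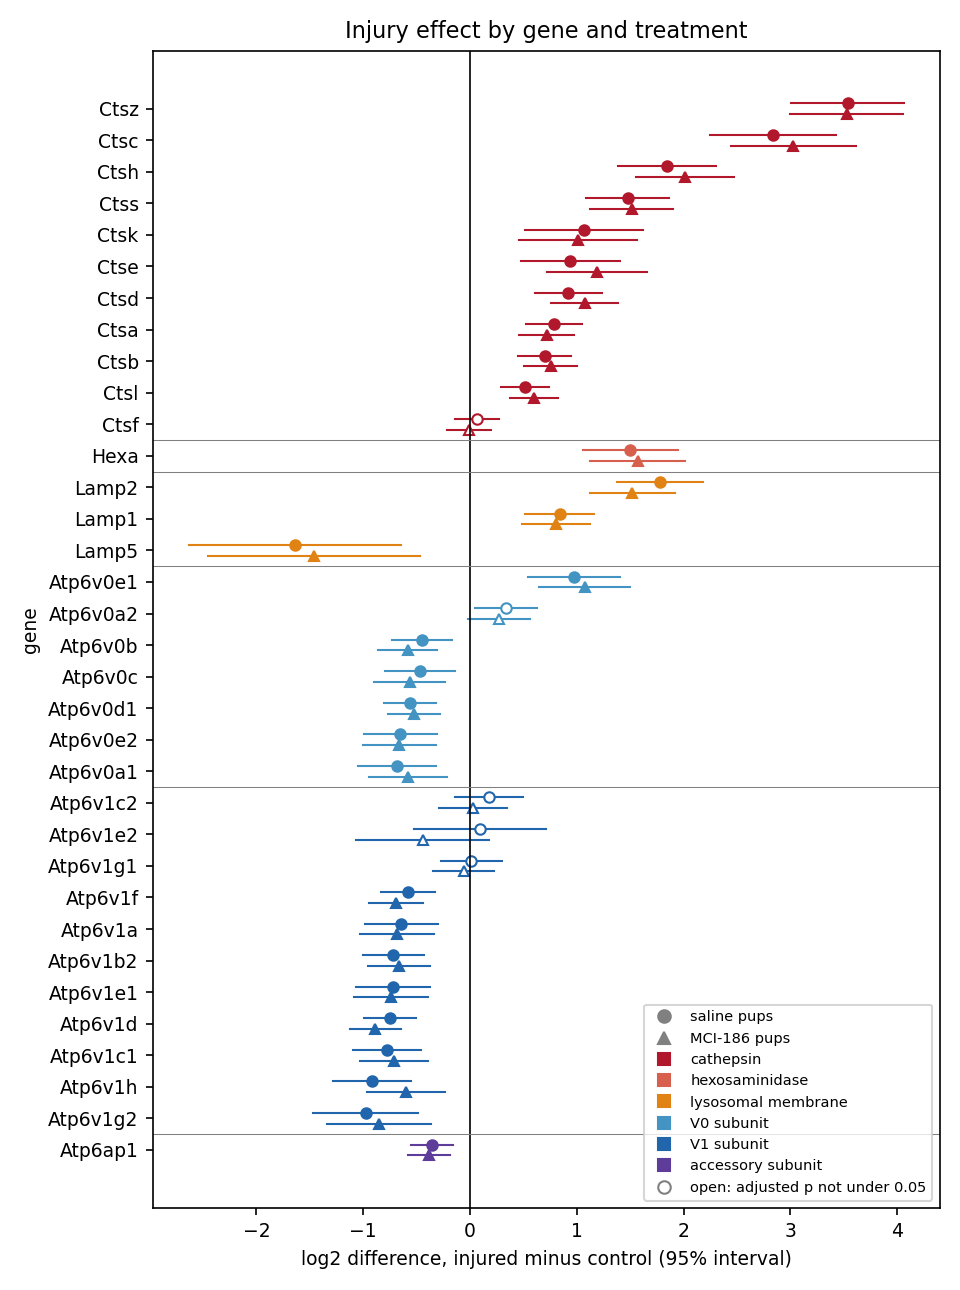
Log2 difference between injured and control pups (horizontal axis, with the 95% limma interval) for each of the 34 genes (vertical axis, grouped by role), circles for saline pups and triangles for MCI-186 pups, open where the adjusted p was not under 0.05. Cathepsins from Ctsl at 0.51 to Ctsz at 3.54 (saline pups) lie right of 0, and most pump subunits lie between -0.45 and -0.98, with Atp6v0e1 at 0.97 on the opposite side.

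Genes of both directions were among the few whose promoter held the CLEAR motif TCACGTGA, the sequence bound in human cells by the lysosomal regulator TFEB. RefSeq promoter windows, from 250 bases before to 50 bases after the annotated start on build GRCr8, were matched for 28 of the 34 genes. The motif, which reads the same on both strands and contains the shorter CACGTG, was present in 4 of the 28 windows (14.3%), those of Ctsd, Lamp1, Atp6v0e1 and Atp6v0d1. It was present in 1.02% of 21851 protein-coding promoters and in 1.61% of 8016 promoters of the named genes tested. By role it was found in 1 of 10 cathepsins, 2 of 15 pump genes and 1 of 3 Lamp genes. The motif was chosen for its tie to a lysosomal regulator and the genes for their lysosomal names. The shares are therefore a description only and were not tested. CACGTG alone was present in 5 of the 28 windows (17.9%), the additional gene being Ctsf, and in 7.02% of all protein-coding promoters and 9.14% of those of tested genes. The 4 windows are shown because 3 of their genes were higher after injury and 1 was lower. All are from the minus strand, written 5′ to 3′, with TCACGTGA in capitals, and the shorter CACGTG is left in lower case where its flanking bases differ.
The Atp6v0d1 stretch is chr19:50357249-50357498, the 250 bases before the start, with the motif beginning at -53 counted from the start site.
Atp6v0d1: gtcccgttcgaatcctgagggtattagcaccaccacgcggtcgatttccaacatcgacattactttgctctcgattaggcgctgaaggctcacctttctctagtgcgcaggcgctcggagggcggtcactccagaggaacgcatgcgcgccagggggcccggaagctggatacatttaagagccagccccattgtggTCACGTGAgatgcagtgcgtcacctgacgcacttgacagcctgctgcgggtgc
The Ctsd stretch is chr1:206968822-206969071, again the 250 bases before the start, with the motif at -11.
Ctsd: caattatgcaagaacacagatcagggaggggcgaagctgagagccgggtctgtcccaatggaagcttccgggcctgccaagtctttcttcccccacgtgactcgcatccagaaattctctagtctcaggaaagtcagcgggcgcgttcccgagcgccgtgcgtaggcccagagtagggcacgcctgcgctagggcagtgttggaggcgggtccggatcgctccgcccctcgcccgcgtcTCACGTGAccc
The Lamp1 stretch is chr16:83075064-83075313, the 250 bases before the start, with the motif at -66 and at -39.
Lamp1: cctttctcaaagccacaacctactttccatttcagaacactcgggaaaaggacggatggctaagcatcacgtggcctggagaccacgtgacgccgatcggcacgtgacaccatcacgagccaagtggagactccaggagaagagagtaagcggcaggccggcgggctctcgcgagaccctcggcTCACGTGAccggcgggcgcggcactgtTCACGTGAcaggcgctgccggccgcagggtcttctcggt
The Atp6v0e1 stretch is chr10:17007115-17007144, 30 bases after the start, with the motif at +23.
Atp6v0e1: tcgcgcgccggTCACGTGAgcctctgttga
These are matches of letters in a window, and binding was not measured.

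Among the cathepsins, Ctsz and Ctsc differed most. Ctsz encodes cathepsin Z, a carboxypeptidase that trims single residues from protein ends. Its log2 signal was -1.59, -1.48 and -1.75 in control saline pups and 1.77, 1.66 and 2.37 in injured saline pups. It was -1.43, -1.52 and -1.58 in control MCI-186 and 2.34, 1.45 and 2.26 in injured MCI-186 pups. All 6 injured pups lay far above all 6 controls. The difference was 3.54 ± 0.24 (SE) in saline pups, an 11.6-fold higher signal (adjusted p = 5.48e-06), and 3.53 ± 0.24 in MCI-186 pups (5.37e-06). Among all named genes tested, the Ctsz difference lay at the percentile 98.6 in both treatments.

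Ctsc encodes the dipeptidyl peptidase that activates the granule serine proteases of leukocytes. Its log2 signal was -1.93, -1.64 and -1.73 in control saline pups and 0.82, 0.96 and 1.44 in injured saline pups. In MCI-186 pups it was -1.64, -1.89 and -1.78 in controls and 1.61, 0.55 and 1.61 after injury. The groups were again fully separate, with a difference of 2.84 ± 0.27 in saline pups (7.14-fold, adjusted p = 3.5e-05) and 3.03 ± 0.27 in MCI-186 pups (8.16-fold, 2.21e-05). Ctsh, an aminopeptidase, read 1.51, 1.67 and 1.55 in control saline and 3.26, 3.41 and 3.59 in injured saline pups. In control MCI-186 pups Ctsh read 1.57, 1.49 and 1.53, and in injured MCI-186 pups 3.82, 2.95 and 3.87. No injured pup came near a control, and the Ctsh difference was 1.84 ± 0.21 (3.58-fold, adjusted p = 0.000108) and 2.02 ± 0.21 (4.05-fold, 5.75e-05).

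Ctss, the protease that trims the invariant chain of MHC class II molecules in antigen-presenting cells, read 3.31, 3.52 and 3.43 in control saline and 4.91, 4.68 and 5.09 in injured saline pups. In MCI-186 pups it went from 3.51, 3.59 and 3.35 in controls to 5.23, 4.57 and 5.20 in injured pups. These groups did not overlap, and the difference was 1.48 ± 0.18 (adjusted p = 0.000154) and 1.51 ± 0.18 (0.000117). Ctsk, best known for collagen breakdown by osteoclasts, read 0.17, 0.27 and 0.14 in control saline and 0.72, 1.29 and 1.78 in injured saline pups. In MCI-186 pups Ctsk read 0.38, 0.37 and 0.19 in controls and 1.42, 0.89 and 1.66 in injured pups. Injured pups varied more among themselves than controls did for this gene but stayed above all controls, with a difference of 1.07 ± 0.25 (adjusted p = 0.00548) and 1.01 ± 0.25 (0.00678).

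The aspartic proteases were Ctsd and Ctse. Ctsd, the main aspartic protease of lysosomes and the cathepsin with TCACGTGA just before its start, read 6.48, 6.47 and 6.33 in control saline and 7.36, 7.12 and 7.56 in injured saline pups. In MCI-186 pups Ctsd read 6.51, 6.45 and 6.37 in controls and 7.64, 7.24 and 7.69 in injured pups. Every injured pup exceeded every control, and the difference was 0.92 ± 0.14 (1.89-fold, adjusted p = 0.000686) and 1.08 ± 0.14 (2.11-fold, 0.000251). Ctse, an endosomal protease, read -2.42, -2.23 and -2.67 in control saline and -1.37, -1.73 and -1.39 in injured saline pups. In MCI-186 pups Ctse read -2.63, -2.57 and -2.22 in controls and -1.25, -1.73 and -0.89 in injured pups. The Ctse groups were separate too, by 0.94 ± 0.21 (adjusted p = 0.00458) and 1.19 ± 0.21 (0.00123).

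Ctsa, Ctsb and Ctsl showed smaller rises. Ctsa, a carboxypeptidase that also shields β-galactosidase and neuraminidase from breakdown, read 4.92, 4.87 and 4.83 in control saline and 5.57, 5.57 and 5.86 in injured saline pups. In MCI-186 pups Ctsa read 4.92, 4.90 and 4.88 in controls and 5.74, 5.38 and 5.74 in injured pups. Its difference was 0.79 ± 0.12 (adjusted p = 0.00057) and 0.72 ± 0.12 (0.000817), with no overlap. Ctsb, a cysteine protease found in nearly all cells, read 6.88, 6.88 and 6.81 in control saline and 7.46, 7.53 and 7.68 in injured saline pups. In MCI-186 pups Ctsb read 6.88, 6.86 and 6.86 in controls and 7.75, 7.37 and 7.75 in injured pups. The 6 controls of Ctsb lay within a narrow band and all injured pups above it, by 0.70 ± 0.11 (1.62-fold, adjusted p = 0.000838) and 0.76 ± 0.11 (1.69-fold, 0.000477).

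Ctsl, an endopeptidase, read 4.76, 4.63 and 4.60 in control saline and 5.13, 5.04 and 5.36 in injured saline pups. In MCI-186 pups it read 4.65, 4.52 and 4.54 in controls and 5.18, 5.09 and 5.23 in injured pups. The groups did not overlap, and the difference was 0.51 ± 0.10 (adjusted p = 0.00224) and 0.60 ± 0.10 (0.000894). Ctsf, a further cysteine protease, was the cathepsin that did not pass in either treatment. It read 3.30, 3.50 and 3.20 in control saline, 3.42, 3.33 and 3.45 in injured saline, 3.27, 3.39 and 3.39 in control MCI-186 and 3.34, 3.32 and 3.36 in injured MCI-186 pups. These groups overlapped, and the difference had a 95% interval of -0.14 to 0.27 in saline pups (adjusted p = 0.587) and -0.21 to 0.20 in MCI-186 pups (0.958).

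**Figure D2:**
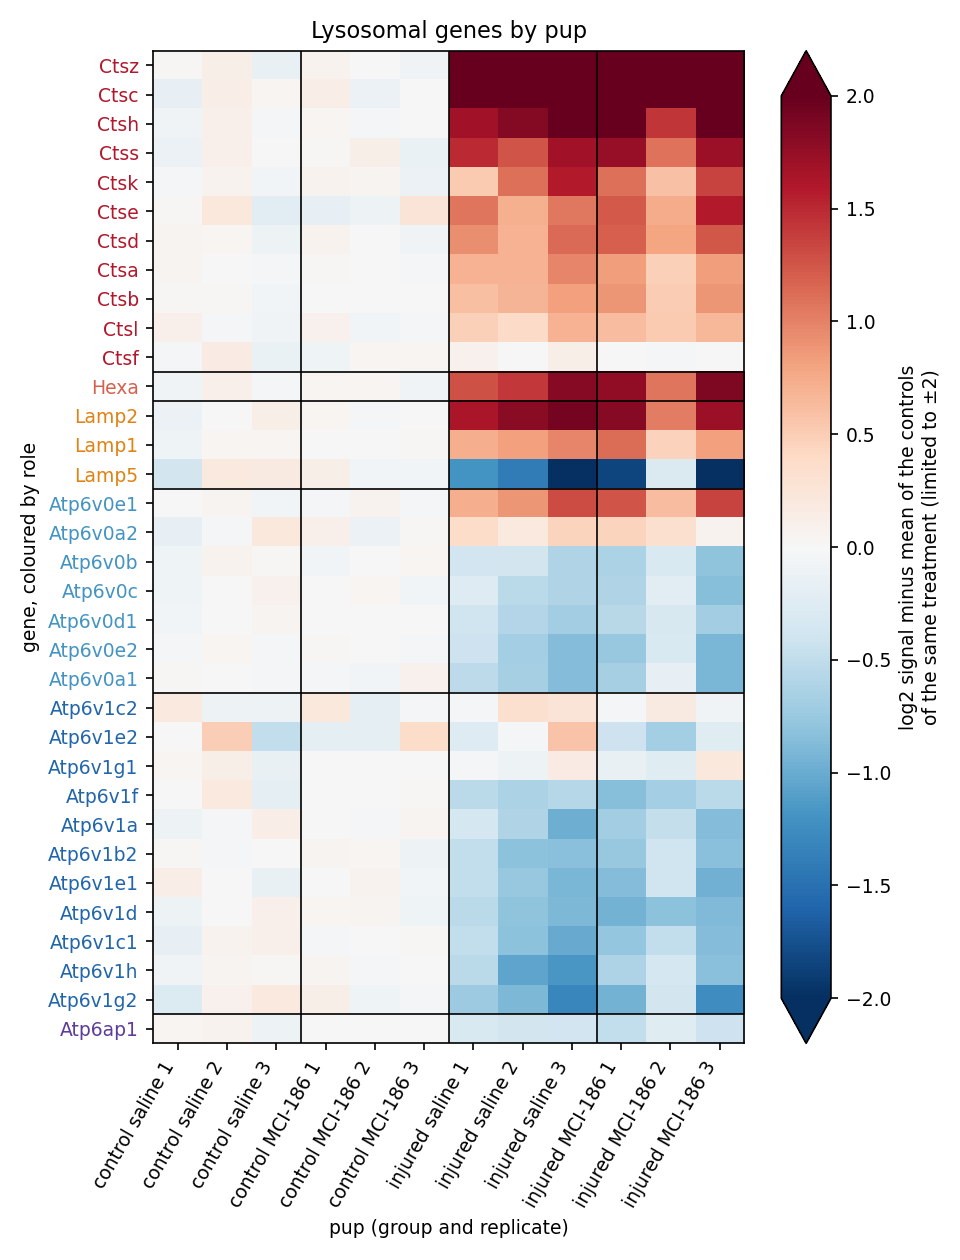
Log2 signal of each tested gene (rows, grouped and coloured by role) in each of the 12 pups (columns), minus the mean of the controls given the same treatment, with the colour scale limited to -2 and 2. Cathepsin rows other than Ctsf are red in all 6 injured pups, pump rows are mostly blue with Atp6v0e1 red, and the colours are palest in injured MCI-186 pup 2.

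The subunits of V1, the part that hydrolyses ATP, were mostly lower after injury: 8 of 11 passed in that direction in each treatment and none was higher, with a median of -0.72 in saline and -0.68 in MCI-186 pups. Of all named genes, 30.4% were lower in saline and 31.4% in MCI-186 pups. Atp6v1a, the catalytic A subunit, read -0.62, -0.56 and -0.40 in control saline and -0.87, -1.12 and -1.50 in injured saline pups. In MCI-186 pups Atp6v1a read -0.39, -0.42 and -0.32 in controls and -1.06, -0.85 and -1.25 in injured pups. It was lower in all injured pups, by -0.64 ± 0.16 (adjusted p = 0.00698) and -0.68 ± 0.16 (0.00473). Atp6v1b2, the B subunit of most tissues and the partner of A in the V1 ring, read 5.72, 5.68 and 5.71 in control saline and 5.21, 4.89 and 4.87 in injured saline pups. In MCI-186 pups Atp6v1b2 read 5.79, 5.77 and 5.64 in controls and 4.97, 5.33 and 4.90 in injured pups. Its groups were separate, with differences of -0.72 ± 0.13 (adjusted p = 0.00161) and -0.67 ± 0.13 (0.00206).

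Atp6v1d and Atp6v1f form the rotor stalk of V1. Atp6v1d read 2.57, 2.67 and 2.77 in control saline, 2.14, 1.86 and 1.77 in injured saline, 2.90, 2.92 and 2.79 in control MCI-186 and 1.92, 2.05 and 1.98 in injured MCI-186 pups. The Atp6v1d difference was -0.75 ± 0.11 (adjusted p = 0.000494) and -0.88 ± 0.11 (0.000169), with no overlap between injured pups and controls. Atp6v1f read 5.35, 5.53 and 5.14 in control saline, 4.80, 4.71 and 4.77 in injured saline, 5.44, 5.45 and 5.48 in control MCI-186 and 4.61, 4.78 and 4.91 in injured MCI-186 pups. Atp6v1f fell in every injured pup relative to every control, by -0.58 ± 0.11 (adjusted p = 0.00228) and -0.69 ± 0.11 (0.000812).

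Atp6v1c1 and Atp6v1h lie where V1 meets V0 and take part in joining the parts. Atp6v1c1 read 2.88, 3.11 and 3.15 in control saline, 2.55, 2.22 and 2.04 in injured saline, 3.13, 3.16 and 3.17 in control MCI-186 and 2.38, 2.67 and 2.28 in injured MCI-186 pups. Its groups did not overlap, at -0.78 ± 0.14 (adjusted p = 0.00175) and -0.71 ± 0.14 (0.00247). Atp6v1h read -2.07, -1.94 and -1.97 in control saline, -2.53, -3.05 and -3.16 in injured saline, -2.03, -2.12 and -2.09 in control MCI-186 and -2.69, -2.43 and -2.91 in injured MCI-186 pups. Atp6v1h was lower in each injured pup, by -0.92 ± 0.17 (adjusted p = 0.00153) and -0.60 ± 0.17 (0.0121).

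Atp6v1e1 and Atp6v1g2 belong to the outer stalks that hold V1 in place. Atp6v1e1 read 1.45, 1.33 and 1.18 in control saline, 0.82, 0.57 and 0.41 in injured saline, 1.31, 1.39 and 1.26 in control MCI-186 and 0.46, 0.93 and 0.36 in injured MCI-186 pups. The groups were separate, with differences of -0.72 ± 0.16 (adjusted p = 0.00401) and -0.74 ± 0.16 (0.00315). Atp6v1g2, an isoform of the G subunit that is enriched in neurons, read 3.84, 4.19 and 4.31 in control saline and 3.38, 3.21 and 2.81 in injured saline pups. In MCI-186 pups Atp6v1g2 read 4.41, 4.21 and 4.28 in controls and 3.35, 3.93 and 3.06 in injured pups. Injured and control pups did not overlap within a treatment. Atp6v1g2 had the largest fall among the pump genes in saline pups, -0.98 ± 0.22 (adjusted p = 0.00483), and -0.85 ± 0.22 in MCI-186 pups (0.0087).

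The other 3 V1 genes, Atp6v1c2, Atp6v1e2 and Atp6v1g1, did not pass. Atp6v1g1, the G subunit of most tissues, differed by 0.01 (95% interval -0.27 to 0.30) in saline and -0.06 (-0.34 to 0.23) in MCI-186 pups. Atp6v1c2 differed by 0.18 (-0.14 to 0.50) and 0.02 (-0.29 to 0.34). Atp6v1e2, known from testis, had wide intervals of -0.53 to 0.71 and -1.06 to 0.17, and in MCI-186 pups its injured pups lay wholly below its controls although the adjusted p was 0.202. Only 1 of its 3 control MCI-186 and 2 of its 3 injured MCI-186 pups were well above background.

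In V0, the membrane part, 5 of 7 subunits were lower, 1 was higher and 1 did not pass in each treatment, and the median was -0.47 in saline and -0.56 in MCI-186 pups. Of all named genes, 30.4% were lower and 24.9% higher in saline pups, and 31.4% and 25.6% in MCI-186 pups. Atp6v0c encodes the c subunit of the rotating ring. It read 4.35, 4.44 and 4.53 in control saline, 4.18, 3.90 and 3.84 in injured saline, 4.50, 4.54 and 4.44 in control MCI-186 and 3.89, 4.26 and 3.64 in injured MCI-186 pups. All injured pups were below all controls. The difference was -0.47 ± 0.15 (adjusted p = 0.025) and -0.56 ± 0.15 (0.0101), and this call was among the least firm: in saline pups the adjusted p rose to between 0.0605 and 0.0857 without control pup 2, control pup 3, injured pup 2 or injured pup 3. With quantile normalization Atp6v0c did not pass in either treatment, at -0.30 (adjusted p = 0.139) and -0.36 (0.0827).

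Atp6v0b, a further proteolipid of the ring, read 3.73, 3.88 and 3.83 in control saline, 3.44, 3.44 and 3.22 in injured saline, 4.16, 4.21 and 4.25 in control MCI-186 and 3.57, 3.90 and 3.40 in injured MCI-186 pups. It was lower than in the controls of the same treatment by -0.45 ± 0.13 (adjusted p = 0.0138) and -0.58 ± 0.13 (0.00339), although 1 injured MCI-186 pup lay above the 3 control saline pups. Without injured saline pup 3 the adjusted p of Atp6v0b in saline pups was 0.0544, and with quantile normalization it was 0.0861. Atp6v0d1, which links the ring to the V1 rotor and carries TCACGTGA before its start, read 3.74, 3.78 and 3.83 in control saline and 3.38, 3.20 and 3.09 in injured saline pups. In MCI-186 pups Atp6v0d1 read 3.88, 3.88 and 3.87 in controls and 3.32, 3.55 and 3.18 in injured pups. All injured pups were below all controls, by -0.56 ± 0.11 (adjusted p = 0.00226) and -0.53 ± 0.11 (0.00291).

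Among the V0 subunits with isoforms, the e pair passed in opposite directions, while of the a pair only Atp6v0a1 passed. Atp6v0e1, an isoform of the small e subunit with TCACGTGA after its start, was the pump gene called higher. It read 1.39, 1.44 and 1.32 in control saline, 2.11, 2.28 and 2.69 in injured saline, 1.44, 1.54 and 1.44 in control MCI-186 and 2.74, 2.08 and 2.82 in injured MCI-186 pups. Its groups were fully separate, at 0.97 ± 0.19 (1.96-fold, adjusted p = 0.00248) and 1.07 ± 0.19 (2.11-fold, 0.00131). Its paralog Atp6v0e2 went the opposite way, reading 2.86, 2.93 and 2.87 in control saline, 2.48, 2.20 and 2.02 in injured saline, 2.88, 2.86 and 2.85 in control MCI-186 and 2.11, 2.55 and 1.95 in injured MCI-186 pups. The Atp6v0e2 difference was -0.65 ± 0.16 (adjusted p = 0.00611) and -0.66 ± 0.16 (0.00528). Atp6v0a1, the a subunit isoform of synaptic vesicles, read 0.75, 0.72 and 0.71 in control saline, 0.21, 0.06 and -0.13 in injured saline, 0.67, 0.63 and 0.78 in control MCI-186 and 0.03, 0.53 and -0.22 in injured MCI-186 pups. It was lower by -0.68 ± 0.17 (adjusted p = 0.00701) and -0.58 ± 0.17 (0.0143), and the latter became 0.0511 without injured MCI-186 pup 1.

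Atp6v0a2, the a subunit isoform of the Golgi and endosomes, did not pass but lay on the higher side. It read -3.18, -3.05 and -2.81 in control saline, -2.65, -2.81 and -2.56 in injured saline, -2.91, -3.13 and -2.99 in control MCI-186 and -2.57, -2.70 and -2.95 in injured MCI-186 pups. The groups overlapped, with differences of 0.34 ± 0.13 (adjusted p = 0.0546) and 0.27 ± 0.13 (0.104). The accessory subunit Atp6ap1, which helps assemble V0, read 5.79, 5.81 and 5.64 in control saline, 5.44, 5.38 and 5.35 in injured saline, 5.77, 5.78 and 5.77 in control MCI-186 and 5.28, 5.53 and 5.36 in injured MCI-186 pups. All injured pups were below all controls of the same treatment, by -0.35 ± 0.09 (adjusted p = 0.00806) and -0.38 ± 0.09 (0.0051). With quantile normalization Atp6ap1 did not pass in either treatment, at -0.20 (adjusted p = 0.0800) and -0.21 (0.0617).

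**Figure D3:**
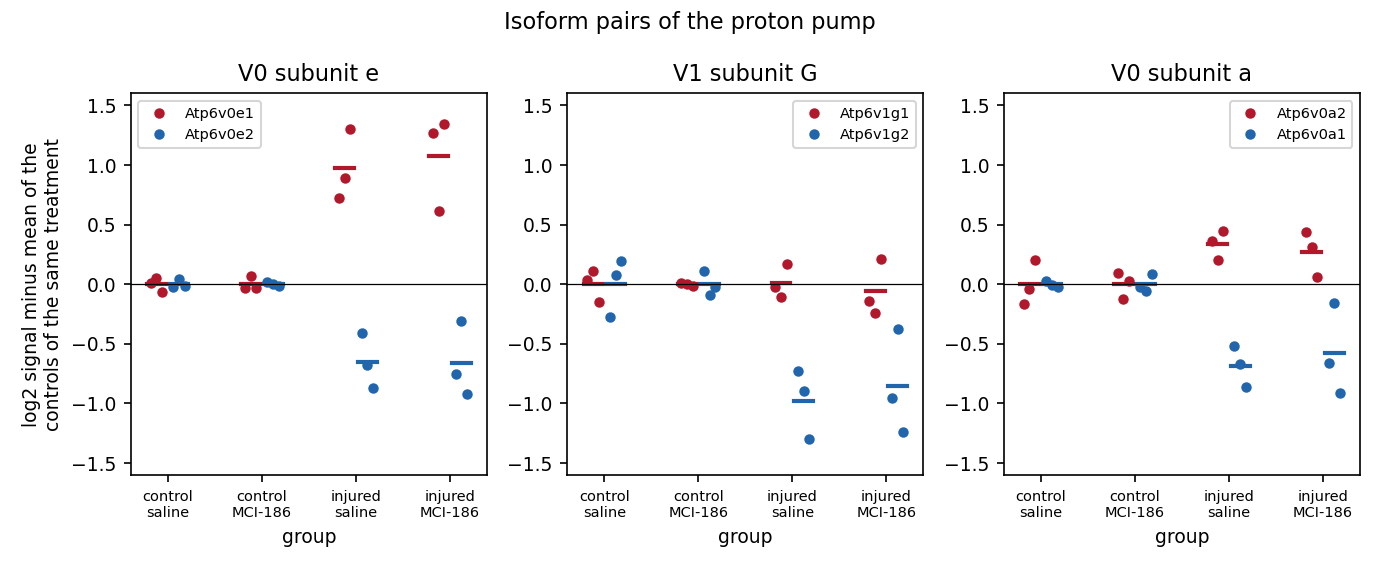
Log2 signal minus the mean of the controls of the same treatment (vertical axis) for 3 pairs of pump isoforms in each pup (points) by group (horizontal axis), with bars at group means. After injury Atp6v0e1 lies above 0 and Atp6v0e2 below it in all 6 injured pups, Atp6v1g1 stays near 0 while Atp6v1g2 lies below it, and Atp6v0a2 lies above Atp6v0a1.

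Set against the controls of the same treatment, the shift of Atp6v0e1 exceeded that of Atp6v0e2 in each injured pup, by 1.13, 1.57 and 2.17 in injured saline and by 2.02, 0.92 and 2.26 in injured MCI-186 pups. The same difference between the paralogs' shifts was -0.05 to 0.07 among the 6 controls. For Atp6v1g1 over Atp6v1g2 it was 0.71, 0.79 and 1.47 in injured saline and 0.81, 0.13 and 1.45 in injured MCI-186 pups, where controls spanned -0.34 to 0.31. For Atp6v0a2 over Atp6v0a1 it was 0.88, 0.87 and 1.31 and then 1.11, 0.47 and 0.98, with controls from -0.19 to 0.23. The e and a pairs were thus apart in every injured pup beyond the range of controls, while for the G pair injured MCI-186 pup 2 lay within that range. These pairs were singled out after their values were seen, and no test was made of them.

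Lamp1 and Lamp2, the heavily glycosylated proteins that line the inner face of the lysosomal membrane, were higher after injury. Lamp1, whose promoter window held TCACGTGA at 2 positions, read 3.22, 3.33 and 3.34 in control saline, 4.02, 4.11 and 4.28 in injured saline, 3.35, 3.35 and 3.37 in control MCI-186 and 4.47, 3.82 and 4.18 in injured MCI-186 pups. Its difference was 0.84 ± 0.14 (1.79-fold, adjusted p = 0.00119) and 0.80 ± 0.14 (1.74-fold, 0.00131), with no overlap. Lamp2, which also serves autophagy, read -0.20, -0.07 and 0.04 in control saline, 1.55, 1.72 and 1.83 in injured saline, 0.15, 0.09 and 0.10 in control MCI-186 and 1.93, 1.14 and 1.83 in injured MCI-186 pups. Lamp2 was well above all controls in each injured pup, by 1.78 ± 0.18 (3.43-fold, adjusted p = 5.99e-05) and 1.52 ± 0.18 (2.87-fold, 0.000137).

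Lamp5, a family member found mainly in neurons of the brain, went the opposite way. It read 1.97, 2.53 and 2.53 in control saline and 1.15, 0.94 and 0.02 in injured saline pups. In MCI-186 pups Lamp5 read 2.15, 1.97 and 1.97 in controls and 0.20, 1.73 and -0.23 in injured pups. All injured pups were lower, but they were spread widely, and the difference was -1.64 ± 0.45 (adjusted p = 0.012) and -1.46 ± 0.45 (0.0192). The call was lost in saline pups without injured pup 3 (0.0510) and in MCI-186 pups without control pup 1, injured pup 1 or injured pup 3 (0.0544 to 0.0739).

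Hexa encodes a lysosomal enzyme subunit that takes part in ganglioside breakdown. Hexa read 0.22, 0.39 and 0.27 in control saline, 1.57, 1.71 and 2.11 in injured saline, 0.20, 0.20 and 0.09 in control MCI-186 and 1.93, 1.24 and 2.03 in injured MCI-186 pups. The injured pups were all above the controls, by 1.50 ± 0.20 (2.83-fold, adjusted p = 0.000304) and 1.57 ± 0.20 (2.97-fold, 0.000206).

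Further probes of the same genes gave the same direction. Atp6v0a1, Atp6v1b2, Atp6v1g2, Ctsl and Ctss had 1 more probe each and Ctsa 2 more, and all of these passed in both treatments. Their differences in saline pups were -0.72, -0.92, -0.87, 0.50, 1.47 and, for Ctsa, 0.86 and 0.71. The additional probe of Atp6v0a2 read 0.34 in saline pups (adjusted p over all probes 0.126) and, like the brightest one, did not pass. RefSeq lists pseudogenes of Atp6v0c, Atp6v1a, Atp6v1e1 and Atp6v1g1, and whether their transcripts share a probe with the parent gene was not tested.

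MCI-186 had no detectable effect on any of these genes. In injured pups none of the 34 passed between MCI-186 and saline, none reached an unadjusted p under 0.05, and the injured groups overlapped for all 34, where 2.46% of named genes were wholly higher and 1.69% wholly lower. Of all named genes 0% passed there, with 188 at an unadjusted p under 0.05. The medians were 0.08 for the cathepsins and 0.06 for the pump genes. The 95% intervals lay within 1 log2 unit of 0 for 33 of the 34 genes and within 0.5 for 22, and the widest, that of Lamp5, reached -1.13 and 0.85. Their spread was pooled over all 4 groups, controls included, and they can be too narrow for genes that varied more in injured pups. For Ctsc the SD was 0.32 and 0.61 in injured saline and injured MCI-186 pups, against 0.15 and 0.12 in the controls. Ctsf went the other way, at 0.06 and 0.02 against 0.16 and 0.07. For Ctsz, the groups of injured pups were 1.77, 1.66 and 2.37 on saline and 2.34, 1.45 and 2.26 on MCI-186, values that interleave.

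In control pups none of the 34 genes passed either, beside 0.14% of named genes, 0.0539% higher and 0.0862% lower. Atp6v0b had the lowest p: its 3 control MCI-186 pups lay above the 3 control saline pups, by 0.39 (unadjusted p = 0.0105, adjusted p = 0.364). The groups also did not overlap for Atp6v0d1, Atp6v1d, Lamp1 and Lamp2, higher with MCI-186, and Hexa, lower, at adjusted p from 0.711 to 0.969. That makes 5 of 34 genes wholly higher and 1 wholly lower, where 16.5% and 11.3% of all named genes were so placed. Intervals stayed within 1 log2 unit for 33 genes and within 0.5 for 21. The injury effect itself did not differ detectably between treatments: the interaction passed for none of the 34 genes and for 0.0215% of named genes (0.0232% of all features), with an interval within 1 log2 unit for 31 genes and within 0.5 for 13. These intervals leave room for effects of moderate size, so absence of an MCI-186 effect is not shown.

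How far the lysosomal genes had moved differed between injured pups. The mean log2 shift of the 11 cathepsins from the controls of the same treatment was 1.23, 1.21 and 1.57 in injured saline and 1.56, 1.04 and 1.62 in injured MCI-186 pups. The mean shift of the 19 pump genes was -0.30, -0.44 and -0.47 and then -0.48, -0.28 and -0.54. Injured MCI-186 pup 2 had the smallest shift of the 6 injured pups for 6 of the 10 called cathepsins and for 11 of the 14 called-lower pump genes. Without that pup the count of calls in MCI-186 pups was still 29 and the gap between the medians was 1.95.

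**Figure D4:**
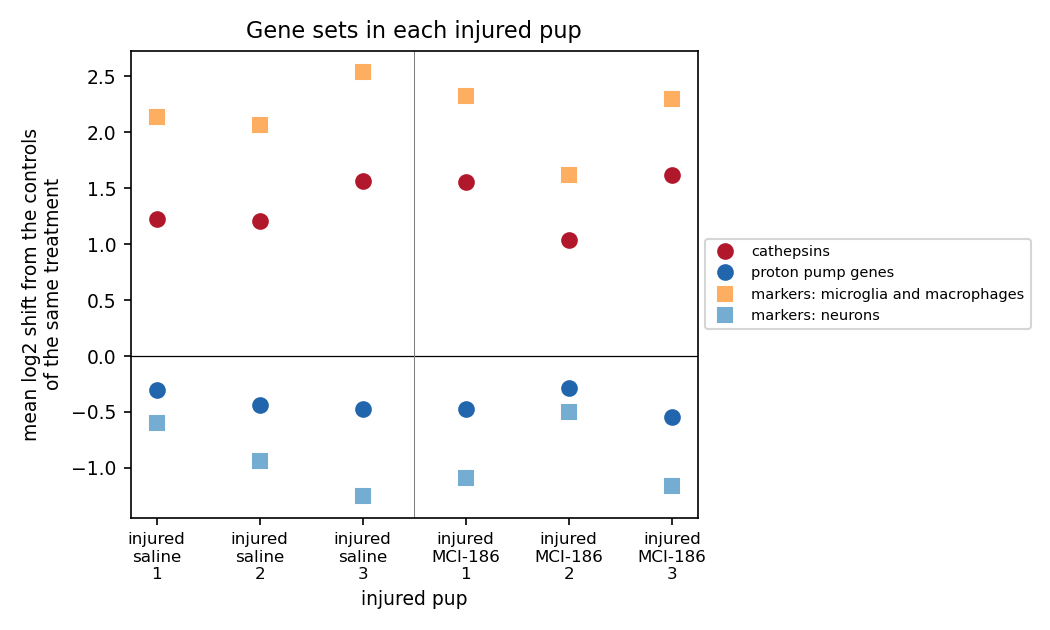
Mean log2 shift from the controls of the same treatment (vertical axis) in each injured pup (horizontal axis), for the cathepsins, the pump genes and the marker lists of microglia with macrophages and of neurons. Injured MCI-186 pup 2 has the lowest cathepsin shift at 1.04 and the lowest microglial shift at 1.62, with a neuronal shift of -0.50 and a pump shift of -0.28 that lie nearest to 0.

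Markers of several cell types moved in the same comparisons, where 24.9% of named genes were higher and 30.4% lower in saline pups (25.6% and 31.4% in MCI-186 pups). Of 12 microglia and macrophage markers, 11 were higher after injury in each treatment, and their summed signal was 21.7 to 29.0 in controls, 127 to 180 in injured saline and 102 to 176 in injured MCI-186 pups. Their mean shift per pup was 2.13, 2.06 and 2.54 in injured saline and 2.33, 1.62 and 2.30 in injured MCI-186 pups, so the pup with the smallest cathepsin shift also had the smallest microglial shift. Of 10 neuronal markers, none was higher, and 8 were lower in saline and 9 in MCI-186 pups, with a mean shift of -0.60, -0.94 and -1.25 and then -1.09, -0.50 and -1.16. The part of these cell types in the cathepsin and pump results was not tested, and in whole cortex a change in the number of cells of a type cannot be told apart from a change in RNA per cell.

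Other marker lists were measured beside them, where 24.9% of named genes were higher and 30.4% lower in saline pups, and 25.6% and 31.4% in MCI-186 pups. Of 4 neutrophil markers tested, 3 were higher in saline and 1 in MCI-186 pups, while Elane and Cxcr2 were not above background on any array. Their sum was 0.204 to 0.341 in controls, 0.382 to 0.466 in injured MCI-186 pups and 0.328, 0.435 and 1.95 in injured saline pups, the highest being pup 3. That pup alone had Ctsg and Atp6v0d2 above background. Of 5 T and NK cell markers, 4 were higher in each treatment, with sums of 0.201 to 0.388 in controls and 0.658 to 1.36 in injured pups, and Cd3e and Gzmb were never above background. Of 7 astrocyte markers, 5 and 6 were higher and 1 was lower, with sums of 121 to 132 in controls and 171 to 217 in injured pups. Oligodendrocyte markers, 8 in all, gave 1 higher and 1 lower in saline and 7 lower in MCI-186 pups. Their sums were 135 to 162 in control saline, 184 to 189 in control MCI-186, 88.5 to 140 in injured saline and 61.8 to 96.5 in injured MCI-186 pups. None of these 8 markers or the 4 neutrophil markers passed between MCI-186 and saline in injured pups, or in the interaction. Their unequal counts therefore do not show a difference between treatments. Of 5 endothelial markers 2 were higher and 2 lower in each treatment, with sums of 15 to 17.5 in controls and 11.7 to 12.9 in injured pups. A sum gives most weight to the brightest probes. The mean log2 shift of the same 5 markers was 0.17, 0.15 and -0.06 in injured saline and 0.34, 0.24 and 0.02 in injured MCI-186 pups. The 3 choroid plexus and ependyma markers tested were all higher, with sums of 0.484 to 0.918 in controls and 6.0 to 13.7 in injured pups, and Kl was not above background on any array. Their part in the results on lysosomal genes was not tested.

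Other genes of the lysosome were described from lists chosen by function. Of 28 further hydrolases and their activators on the array, 21 were higher and none lower after injury in each treatment, with a median of 0.71 in saline and 0.68 in MCI-186 pups. The 4 with the lowest p in saline pups were Dnase2, which digests DNA in lysosomes, at 3.12 ± 0.20, Lgmn, the protease legumain that also matures cathepsins, at 2.05 ± 0.15, Npc2, which hands over cholesterol, at 2.06 ± 0.20, and Man2b1, an α-mannosidase, at 1.32 ± 0.13. These lay on the same side as the cathepsins. Of 19 further membrane and transport genes, 9 were higher and 4 lower in saline pups and 11 and 5 in MCI-186 pups, at medians of 0.31 and 0.46. Among all named genes tested, 24.9% were higher and 30.4% lower in saline pups, and 25.6% and 31.4% in MCI-186 pups. In saline pups Cd68, a membrane glycoprotein of phagocytes, differed by 5.42 ± 0.28, Laptm5, of blood-derived cells, by 2.53 ± 0.22, Slc29a3, a nucleoside carrier, by 1.80 ± 0.19, and Slc11a1, a metal carrier of phagocytes, by 1.90 ± 0.23.

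The remaining lists were small. Their counts stand beside 24.9% of named genes higher and 30.4% lower in saline pups, and 25.6% and 31.4% in MCI-186 pups. Of 4 cystatins, the natural inhibitors of cysteine cathepsins, Cst3 and Cstb were higher in both treatments, by 0.60 ± 0.11 and 0.43 ± 0.13 in saline pups. Csta read -1.20 ± 0.64 in saline pups (adjusted p = 0.142) and passed as lower in MCI-186 pups at -1.93 ± 0.64 (0.0267). Of 5 genes of lysosomal sorting and regulation, 3 were higher in each treatment: M6pr, the small mannose 6-phosphate receptor, by 0.81 ± 0.12, Tfeb, the transcription factor of the CLEAR motif, by 0.80 ± 0.15, and Sumf1, the activator of sulfatases, by 0.50 ± 0.15, all in saline pups. The 2 other pump genes on the array, Wdr7, a partner of V1 and V0 assembly on vesicles, and Tmem199, a helper of V0 assembly, were lower, by -0.80 ± 0.20 and -0.47 ± 0.09, on the side of most pump subunits.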

How the data were processed

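RNA from 12 cortex samples was labelled with Cy3 and each hybridised to a 1-colour Agilent rat array with 45018 spots. Spot intensity in the deposited scanner files is linear and had its background subtracted in Agilent Feature Extraction (version 9.5.3.1), per the file headers. A value table deposited by the authors is in log2 (column medians -0.121 to 0.121) and served as an alternative. It correlated at 0.998 to 1.000 with the values recomputed here, after each probe's median over the 12 arrays was subtracted from the recomputed values. No source used here gives the authors' centring.

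Each array's processed signals were scaled to the 75th percentile of its non-control spots, floored at 0.005 of that percentile and taken as log2. Outlier spots were left out and repeat spots averaged. Of 41012 probes, 15184 were named through RefSeq accessions (12170 of 12977 curated accessions matched). Kept probes (28524) were well above background in every pup of 1 group or more, and a gene was represented by its brightest probe, giving 9286 named genes and 16612 unnamed probes. Groups were compared with limma 3.58.1 in R 4.3.3 across the 12 arrays (residual degrees of freedom 8), and p-values were adjusted over all features. Replicates are pups, and 3 per group limits the precision. Replicate numbers were taken to number pups within a group, not to pair them across groups. Correlations of deviations between pups of the same number were -0.282 to 0.538, the highest between injured saline and injured MCI-186 pup 3. Of the 12 arrays, 4 correlated best with an array of their own number.

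All tested members that passed in either injury comparison are named, with every cathepsin, and up to 4 genes of each further list by lowest p in saline pups. Members and lists were chosen with earlier results of these data known. Alternatives were normexp background (on median spot signals, as the files hold no mean signals), median and quantile scaling, the value table, other filters and floors, the mean of a gene's probes, fewer arrays in the fit, unmoderated variance, a replicate block and leaving out each pup. The script was tested on simulated data. Proteins were not analysed here, and a result on 1 further gene is not reported here.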

Additional observations from a re-analysis of the deposited data

Results flagged for a closer look

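Signal well above background was measured in 1 or 2 pups for some genes that did not pass the detection filter and so entered no comparison. Atp6v0d2, an isoform of the V0 d subunit known from mouse osteoclasts and macrophages, was above background in 1 of 12 pups, injured saline pup 3, at a log2 signal of -4.07, where the highest control was -6.32. Ctsg, the cathepsin G of neutrophil granules, was above background in the same pup, at -3.99, where the highest control was -6.65. Both stood out because a signal above that of the controls appeared in data the comparisons left out. With 1 pup, Atp6v0d2 and Ctsg have no replicate. Signal on the control side was seen as well. Ctsj was above background in control saline pups 1 and 3, at -3.36 and -4.13, where the highest injured pup was -6.79. Atp6v1g3 was above background in control MCI-186 pup 1 only, at -4.97, where the highest injured pup was -5.89. With no filter on dim probes, limma called Ctsj lower (-2.60, adjusted p = 0.0427) and Ctsw higher (0.87, 0.0183) in saline pups. It called Atp6v1g3 lower in MCI-186 pups (-1.69, 0.0469). Ctsw was well above background on 0 of the 12 arrays, and all its control saline values lay at the floor. Its call therefore rests on signal not told apart from background.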

How the results depend on the processing

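Among the alternatives run, none of the 29 members that passed changed direction. Over these and Ctsf, 1005 values kept their side of the threshold and 15 passed no longer. Ctsf, which did not pass, lay on both sides of 0 without single pups (-0.0027 to 0.15 in saline, -0.05 to 0.02 in MCI-186 pups) and was -0.02 in saline pups with median scaling. Under quantile normalization Atp6ap1 and Atp6v0c missed the threshold in both treatments (adjusted p 0.0800 and 0.139 in saline, 0.0617 and 0.0827 in MCI-186 pups) and Atp6v0b in saline pups (0.0861); the cause was not tested. The pump genes called higher in saline pups rose from 1 to 2, by Atp6v0a2, with the deposited value table and with the filter that required signal on all 12 arrays, and leaving out single pups gave 1 to 2 in both treatments. The cathepsin minus pump median in MCI-186 pups was 1.30 with no filter on dim probes, which adds genes near the floor; leaving out single pups gave 1.31 to 1.61 in saline and 1.47 to 1.95 in MCI-186 pups. Calls among members ranged from 26 to 29 (saline) and 27 to 29 (MCI-186) without single pups; without injured saline pup 3 they were 26, with quantile normalization 26 and 27, and with no filter 31 and 30. In MCI-186 pups they were 30 with normexp background, where Atp6v1e2 passed at -0.36 (adjusted p = 0.0129). That gene was well above background in only 1 control MCI-186 and 2 injured MCI-186 pups. With the replicate number as a block, 29 members were called in each injury comparison and 0 in the interaction, and the block changed no call. Median scaling moved the median of all named genes in saline pups from -0.09 to -0.18.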
